A study of Mus musculus with 2 samples.

Results

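The Tie receptors Tek (also called Tie2) and Tie1, the angiopoietins Angpt1 and Angpt2 and the phosphatase Ptprb were followed through a single-cell RNA-seq library of postnatal mouse endothelial cells. These 5 genes were chosen by name, out of 21951 genes and transgene sequences in the matrix. All 5 were measured, and all 5 reached 20 UMIs (unique molecular identifiers, each one counted mRNA molecule) over the groups of every comparison between hashtag groups.

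Tie2 is a receptor tyrosine kinase of the endothelial surface, and Tie1 is a related receptor that forms complexes with it. Angpt1, made mainly by perivascular and mesenchymal cells, activates Tie2 and keeps vessels quiescent, whereas Angpt2, made by endothelial cells themselves and typical of sprouting tips and remodelling vessels, blocks or weakly activates the receptor depending on the setting. Ptprb, or VE-PTP, is an endothelial receptor phosphatase that removes phosphate from Tie2 and from the VE-cadherin complex.

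The study compared alleles that couple a fluorescent reporter to Cre, so that marked cells also lose floxed genes. The labels give 1 genotype, Cdh5-CreERT2 + iHadSuRe-Cre, for the pooled library as a whole and none for each group. C57BL/6 pups received 40 mg/kg 4-hydroxytamoxifen on postnatal day 3. Hearts and livers were taken 3 days later, at P6 to P7, for a sort on CD31 and membrane Tomato. Hashtag antibodies separated 6 groups in 1 pooled 10x library, namely control, iSuRe-Cre and iSuRe-HadCre cells of heart and of liver, and the study describes a floxed Notch1 gene in the iSuRe groups. Cdh5-CreERT2 is driven by the promoter of VE-cadherin and acts in endothelial cells; the genotype of the control, its reporter and the number of pups behind each hashtag were not given in the sources used here. Each group is therefore 1 sample, no difference between groups has a replicate check, and no test was made. Every interval given is a 95% interval of counting error only, exact Poisson for a level, exact conditional for a ratio and exact binomial for a share.

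After filtering, 1988 cells were Cdh5-positive and carried 1 hashtag group. The heart gave 254 control cells, 311 iSuRe-HadCre cells and 435 iSuRe-Cre cells, and the liver 54, 76 and 858 in the same order. Gene UMIs per group ranged from 624048 to 9341120, and the median per cell was 16379 in iSuRe-Cre heart against 7322 to 9100 in the other 5 groups. Notch1, the targeted gene, stood at 138 CPM (UMIs per 1000000 gene UMIs) in control heart and 160 in control liver, against 12.6 to 30.7 in the 4 iSuRe groups. The transgene element WPRE was read at 562 and 396 CPM in the control groups and at 1055 and 1070 in the iSuRe-HadCre groups. In the iSuRe-Cre groups it stood at 63.5 and 105, below the 160 CPM in barcodes of 10 to 100 UMIs, which hold free RNA. A cell that met the marker rule of a non-endothelial type made up 5.51% to 20.0% of a group, the most in iSuRe-Cre liver. The share of a group's UMIs that free RNA could supply was estimated at 13.6% in iSuRe-Cre heart, against 2.35% in control heart and 1.61% in iSuRe-HadCre heart. The liver estimates were 26.2% for iSuRe-HadCre (on 12 marker UMIs), 9.88% for iSuRe-Cre and 0 for control. Its part in the results was not tested beyond the values given beside them.

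The groups also differed in the kind of endothelial cell they held. The Stab2 sinusoidal gate, set by Stab2, Oit3, Fcgr2b and Clec4g, took 398 of 858 iSuRe-Cre liver cells (46.4%) but 6 of 76 iSuRe-HadCre liver cells and 0 of 54 control liver cells, which allows a share of up to 5.56%. The liver label of the control group is thus not borne out by markers of sinusoidal cells, and liver differences between alleles cannot be told apart from differences in vessel type. In the heart, the Tcf15 capillary gate, set by Tcf15, Fabp4, Gpihbp1 and Cd300lg, held 191 control, 310 iSuRe-Cre and 179 iSuRe-HadCre cells.

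In the GENCODE M21 annotation of GRCm38, Tek (ENSMUSG00000006386) spans chr4:94739289-94874976 on the plus strand and Tie1 (ENSMUSG00000033191) spans chr4:118471191-118490061 on the minus strand. Angpt1 (ENSMUSG00000022309) spans chr15:42424723-42676977 and Angpt2 (ENSMUSG00000031465) spans chr8:18690263-18741562, both on the minus strand, and Ptprb (ENSMUSG00000020154) spans chr10:116275523-116389535 on the plus strand. Angpt2 lies wholly inside Mcph1, which is read from the opposite strand, and an antisense gene, Gm17473, reaches an exon of Angpt1; Cell Ranger counts a read only for the gene on its own strand. Of the 5 genes, 2 matched a RefSeq promoter window, Tek and Tie1. The 250 bases before the Tek start are shown because Tek and Tie1 moved together over cell types (r is given with the gates), with the core letters of ETS factor sites, GGAA or its reverse complement TTCC, in capitals. The stretch is chr4:94739039-94739288 of GRCm38.p6, plus strand. Most of the Tie1 window, 212 of 250 bases, lies in an exon of a GENCODE transcript and is not shown.
Tek: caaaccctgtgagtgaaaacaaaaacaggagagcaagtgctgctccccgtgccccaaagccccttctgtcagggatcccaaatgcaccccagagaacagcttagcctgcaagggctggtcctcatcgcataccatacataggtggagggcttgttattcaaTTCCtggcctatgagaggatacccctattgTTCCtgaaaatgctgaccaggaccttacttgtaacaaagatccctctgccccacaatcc
The Tek stretch held 2 such cores, both TTCC, starting 89 and 59 bases before the start, and 76.8% of the 32851 RefSeq windows held at least as many. The Tie1 window held 7, a number that 3.82% of windows reached. One or more were found in 93.4% of windows, so that a match describes the sequence only.

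Tek was highest in endothelial gates. The gates were set by marker UMIs in all filtered cells of the library, hashtagged or not, and 19 of 24 held at least 20 cells, 6 of them Cdh5-positive. All gates other than the 6 endothelial ones took only Cdh5-negative cells. Some gates held cells of tissues that the labels do not name, such as keratinocytes and neurons, whose source was not given. The Npr3 endocardial gate gave 514 CPM of Tek (480-550, 116 cells), the Vwf large-vessel gate 383 (355-413, 126 cells), the Gja5 arterial gate 333 (312-354, 271 cells) and the Stab2 sinusoidal gate 310 (294-326, 480 cells). The Tcf15 capillary gate followed with 181 (175-188, 1582 cells) and the Mmrn1 lymphatic gate with 87.5 (64.3-116, 48 cells). Arterial and sinusoidal cells were the only neighbours in this order whose ratio, 1.07, had an interval that included 1 (0.99-1.17). These gates pool groups unequally, with 398 of the 480 sinusoidal cells from iSuRe-Cre liver. Within that group arterial cells gave 443 (370-525), sinusoidal 316 (299-333) and capillary 306 (247-375), whose intervals overlapped. Compared group by group, arterial and capillary intervals were separate only for iSuRe-Cre heart, 341 (259-441) against 129 (120-139). Arterial levels were the lower ones for control heart cells, 190 against 261, and for those of iSuRe-HadCre, 206 against 298. In the 13 other gates Tek ranged from 0 to 28.8 CPM, the highest in the Ngp neutrophil-lineage gate, all below the 87.8 CPM of free RNA.

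Tie1 followed the same division with a flatter profile. It stood at 240 CPM (223-258) in arterial, 233 (210-257) in endocardial and 215 (194-238) in large-vessel cells, neighbours that did not differ beyond counting error. Sinusoidal cells gave 163 (151-175) and capillary cells 158 (152-165), again not separable with a ratio of 1.03 (0.95-1.11), and lymphatic cells gave 108 (82.0-140). The other gates lay between 2.36 and 20.8 CPM, against 63.9 in free RNA. The pooled order of arterial over capillary cells was reversed for control heart, with 117 (78.4-168) against 194 (176-214). It held for iSuRe-Cre heart, with 330 (249-428) against 130 (121-140), and the intervals overlapped in the other groups.

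Ptprb varied most among vessel types. It reached 2217 CPM (2147-2288) in the Vwf large-vessel gate, 1220 (1181-1260) in arterial and 1098 (1068-1128) in sinusoidal cells. Endocardial cells, the highest for Tek, gave 327 (300-356) and capillary cells 299 (290-307), a ratio of 1.09 whose interval started at 1.00. Lymphatic cells gave 151 (120-187), and the other gates lay between 8.61 and 66.2, against 173 in free RNA. Large-vessel cells thus carried 1.82 (1.74-1.90) times the arterial level of the phosphatase, while for its substrate Tek the same pooled gates differed 1.15-fold (1.04-1.27). Of 126 large-vessel cells 83 came from iSuRe-Cre liver, but only 20 of 271 arterial cells did. Within that group Ptprb stood at 2280 (2195-2367) in large-vessel and 1365 (1236-1504) in arterial cells. Tek stood at 383 (349-420) and 443 (370-525) there, with overlapping intervals, so its pooled order was not seen.

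Angpt1 was highest outside the endothelial gates. It peaked in the Col1a2 mesenchymal gate at 89.0 CPM (83.3-95.1, 879 UMIs in 662 cells), followed by the Kcnj8 pericyte gate with 67.4 (47.9-92.1, 36 cells) and the Myh11 smooth muscle gate with 48.7 (42.2-56.1, 220 cells); no neighbouring pair among these 3 differed beyond counting error. A UMI of Angpt1 was seen in 26.9% of mesenchymal cells (23.5-30.4) at a median depth of 14506 UMIs, and in 5.18% of hepatocyte-gate cells (2.79-8.69) at 4609. With each cell thinned to 2000 UMIs the shares were 10.4% and 2.41%. Among endothelial gates, endocardial cells gave 26.1 CPM (18.9-35.1), arterial cells 18.4 (13.9-23.9), lymphatic cells 16.7 (7.66-31.8) and large-vessel cells 12.1 (7.49-18.5), all below the 37.9 CPM of free RNA. Sinusoidal and capillary cells were lowest, with 4.50 (2.79-6.88) and 3.69 (2.81-4.76).

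Angpt1 also lay in few cells. In the Krt5 keratinocyte gate 86 of 143 UMIs came from 1 cell, in the Prph neuron gate 56 of 204 and in the arterial gate 24 of 55. In mesenchymal cells the richest cell held 40 of 879 UMIs, and 58 cells held 5 or more.

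Angpt2, like Angpt1 and unlike Tek, Tie1 and Ptprb, did not separate the endothelial gates from the others. The lymphatic gate was highest with 33.5 CPM (19.9-52.9), from only 18 UMIs, followed by pericytes with 24.2 (13.2-40.6), sinusoidal cells with 19.3 (15.5-23.7), capillary cells with 18.1 (16.0-20.3) and endocardial cells with 17.0 (11.3-24.5). None of these neighbours differed beyond counting error. The arterial gate, with 7.69 (4.87-11.5), and the large-vessel gate, with 5.19 (2.37-9.84), were the lowest of the endothelial gates, and free RNA gave 7.59. A UMI was found in 13.5% of capillary cells (11.8-15.2, median depth 7112) and in 4.82% of macrophage-gate cells (2.10-9.27, median depth 6799), or 3.22% and 0.456% after thinning.

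**Figure D1:**
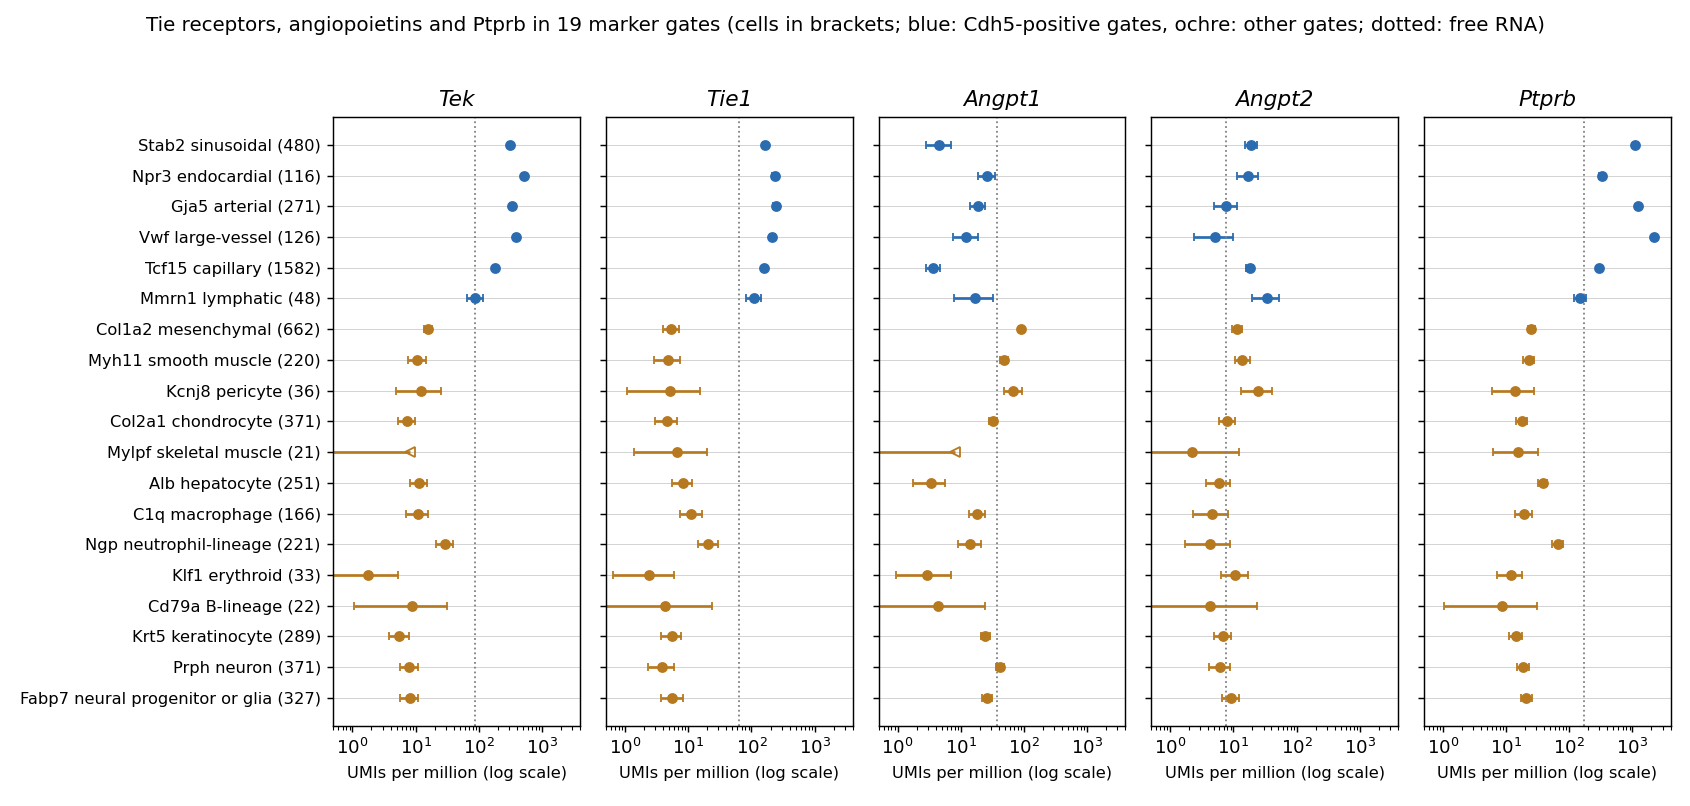
Level of each gene (CPM, log scale) in 19 marker gates; points are the pooled level of a gate's cells, bars the 95% Poisson interval, open triangles the upper limit where no UMI was seen, and dotted lines the level in free RNA. Tek, Tie1 and Ptprb (up to 514, 240 and 2217 CPM) were highest in the blue Cdh5-positive gates, Angpt1 was highest in mesenchymal cells (89.0) and Angpt2 spread over both kinds of gate.

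Over the 19 gates, Tek and Tie1 had a Pearson r of 0.979 on log2 levels, Tek and Ptprb 0.954 and Tie1 and Ptprb 0.953. Tek and Angpt1 gave -0.121 and Tek and Angpt2 0.384. These describe 19 points that share 1 library and differ in depth. The gates were also split by Cdh5, so any gene read mostly in Cdh5-positive cells gains a high r from that split. Cdh5 itself had an r of 0.987 with Tie1. Among 12801 genes, the 2 most like Tek were Mmrn2 (r of 0.990), a protein of the endothelial matrix, and Eng (0.982), a co-receptor of the TGF-beta family. For Tie1 they were Thsd1 (0.991) and She (0.990), and for Ptprb Tnfsf10 (0.985), the ligand TRAIL, and Clec14a (0.976), an endothelial surface lectin. Angpt1 was most like the axon guidance gene Sema5a (0.905), and for Angpt2 no gene passed 0.767, the value of Xpnpep1.

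In the heart, Ptprb and Tek were both lower in iSuRe-Cre cells than in control cells, and iSuRe-HadCre cells lay near control. Ptprb stood at 547 CPM (521-574) in control heart, against 191 (181-200) for iSuRe-Cre and 525 (500-551) for iSuRe-HadCre. The iSuRe-Cre to control ratio was 0.348 (0.325-0.373), and the value of 191 lay close to the 173 CPM of free RNA. Tek stood at 251 (233-269), 166 (157-175) and 271 (253-290) in the same order, and its iSuRe-Cre to control ratio was 0.660 (0.604-0.722). Tie1 stood at 175 (160-190), 136 (128-144) and 208 (192-225), with a ratio of 0.779 (0.702-0.865). Only the iSuRe-Cre level lay apart for Tek and Ptprb; for Tie1 all 3 intervals were separate.

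Of the 5 genes, 1, Ptprb, was past 2-fold between iSuRe-Cre and control heart, where 9.86% of all 12179 genes with at least 20 UMIs were, and the median ratio of all genes was 0.961. Between iSuRe-HadCre and control heart 0 of 5 were past 2-fold (7.53% of all genes), with ratios from 0.854 for Angpt2 to 1.19 for Tie1 (1.06-1.34). Between iSuRe-HadCre and iSuRe-Cre heart 1 of 5 was (11.3% of all genes), again Ptprb with 2.76 (2.57-2.95), and Tek and Tie1 had ratios of 1.63 (1.50-1.78) and 1.53 (1.39-1.68). The first and the last of these comparisons share the iSuRe-Cre cells. With 1 sample a group, these are differences between 3 pools of cells.

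On the scale of molecules per cell the comparison read differently for Tek and Tie1. The Tek count was 2.99 UMIs per cell in control heart and 3.16 in iSuRe-Cre heart, whose cells were deeper, and 2.70 in iSuRe-HadCre heart. Tie1 gave 2.09, 2.60 and 2.08 in that order, again highest in iSuRe-Cre heart. For Ptprb the UMIs per cell were 6.53, 3.64 and 5.24, lower in iSuRe-Cre cells on both scales. Shares of cells with a UMI, after thinning each cell to 2000 UMIs, were lowest in iSuRe-Cre heart for Ptprb and Tek, with 62.7%, 29.6% and 58.7% for Ptprb and 40.3%, 26.1% and 40.3% for Tek. Unthinned, Ptprb was seen in 93.7% (90.0-96.4), 83.9% (80.1-87.2) and 88.7% (84.7-92.0) of cells, against 20.5% of macrophage-gate cells (14.6-27.4) at a median depth of 6799, or 9.25% of them after thinning.

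**Figure D2:**
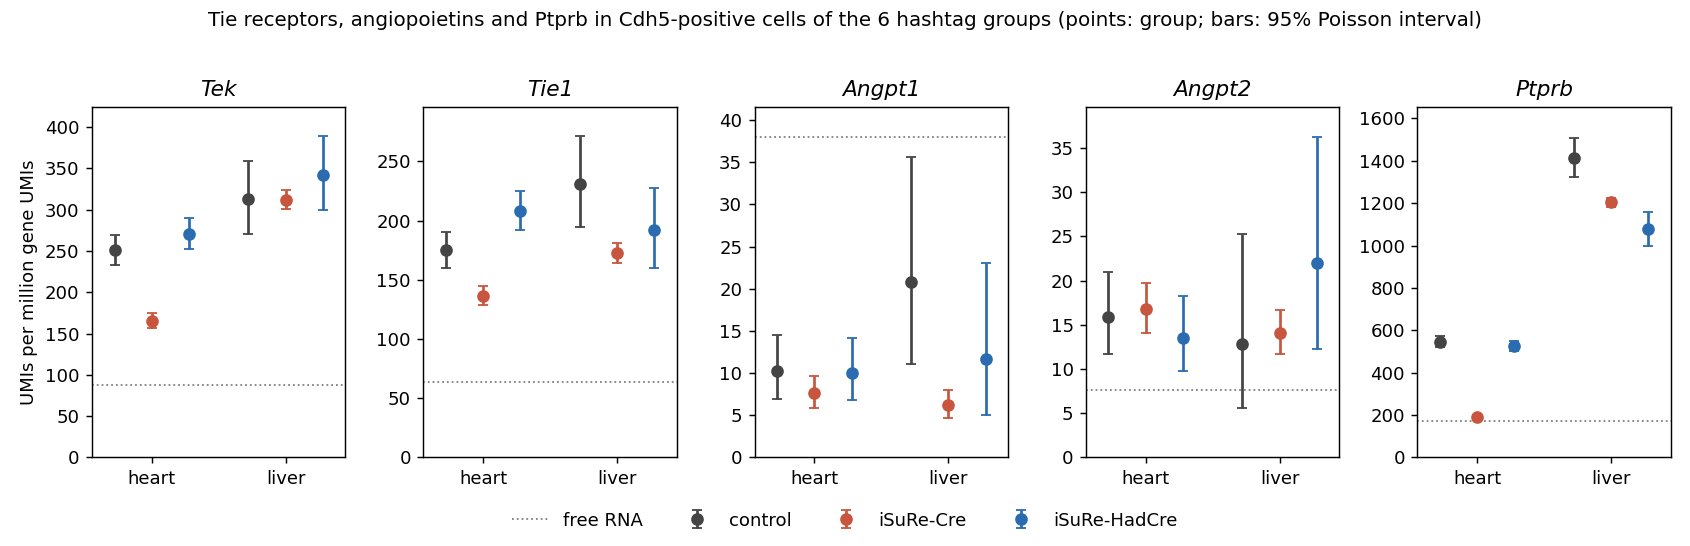
Level of each gene (CPM) in Cdh5-positive cells of the 6 hashtag groups; points are groups of 1 sample each, bars the 95% Poisson interval and dotted lines the level in free RNA. Ptprb was at 191 in iSuRe-Cre heart and above 1000 in all 3 liver groups, and Angpt1 lay below free RNA in every group.

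The heart difference was also present within a single vessel type. Among Tcf15 capillary cells Ptprb stood at 503 CPM (474-534) for control, 171 (160-182) for iSuRe-Cre and 508 (471-547) for iSuRe-HadCre. Tek stood at 261 (239-283), 129 (120-139) and 298 (270-328), and Tie1 at 194 (176-214), 130 (121-140) and 259 (233-287). The iSuRe-Cre cells were lowest in all 3 genes, with no overlap of intervals. The iSuRe-Cre to control ratios were 0.340 (0.311-0.371) for Ptprb, 0.495 (0.443-0.553) for Tek and 0.669 (0.592-0.757) for Tie1. Past 2-fold here were 3 of 5 genes (11% of all genes), namely Ptprb, Tek and, upward, Angpt1 with 23 UMIs against 1 and a ratio of 8.58 (1.39-353). Between iSuRe-HadCre and control capillary cells 0 of the 4 genes that reached 20 UMIs were past 2-fold (5.91% of all genes), and between iSuRe-HadCre and iSuRe-Cre capillary cells 2 of 5 were (14.6%), Ptprb with 2.97 (2.69-3.28) and Tek with 2.31 (2.04-2.61).

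Other endothelial genes moved both ways in iSuRe-Cre heart. Pecam1, the surface marker CD31 used in the sort, stood at 844 CPM in control and 586 in iSuRe-Cre heart, and Cdh5 at 1310 and 975. Cldn5 (638 and 459) and Esam (386 and 295) were lower as well, whereas Egfl7 (768 and 911) and Emcn (392 and 433) were higher. Relative to the summed UMIs of 5 endothelial reference genes (Pecam1, Cldn5, Egfl7, Esam and Emcn), the iSuRe-Cre to control ratio was 0.393 for Ptprb, 0.745 for Tek and 0.879 for Tie1. On CPM the median ratio of these 5 genes was 0.763, near the 0.779 of Tie1. Kdr, the main VEGF receptor, went the other way with 184 CPM in control heart against 480 for iSuRe-Cre and 831 for iSuRe-HadCre. Flt1, another VEGF receptor, stood at 566, 368 and 565 CPM in that order.

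**Figure D3:**
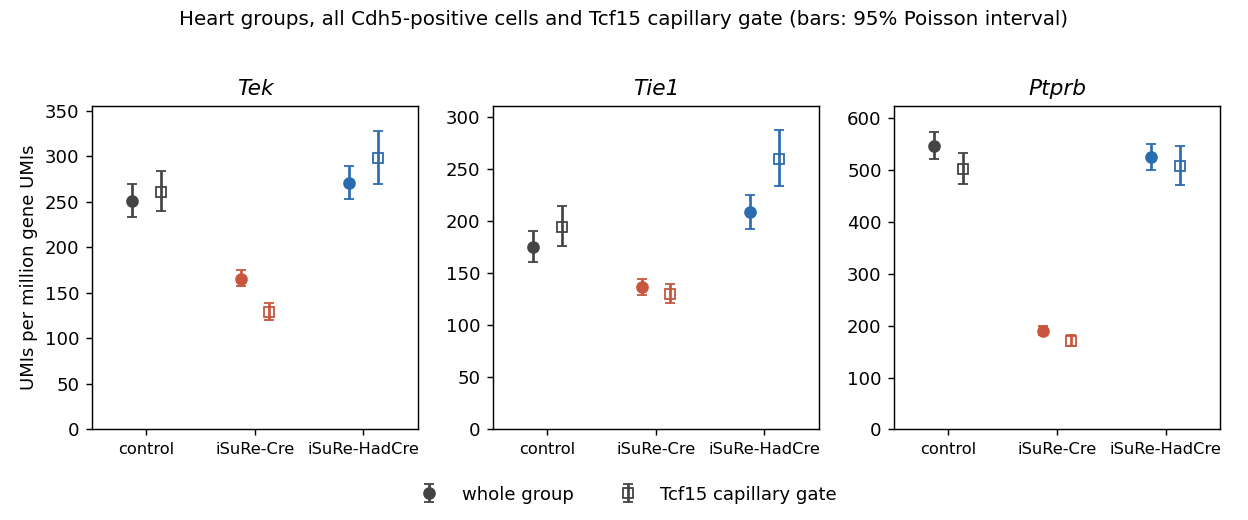
Tek, Tie1 and Ptprb (CPM) in the 3 heart groups, for all Cdh5-positive cells (filled circles) and for Tcf15 capillary cells (open squares), with 95% Poisson intervals. The iSuRe-Cre points are the lowest in each panel, and for Ptprb they stand at 191 against 547 in control for whole groups and at 171 against 503 in capillary cells.

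The endocardial cells of the heart groups were few. Tek gave 381 CPM (268-525) in 5 control endocardial cells, 1143 (900-1430) in 8 of iSuRe-HadCre and 596 (524-676) in 22 of iSuRe-Cre, so that the iSuRe-Cre group was not the lowest there. In arterial cells Ptprb stood at 1062 (938-1199) in 18 control cells, 1160 (1028-1306) in 20 of iSuRe-HadCre and 636 (522-768) in 14 of iSuRe-Cre. Ptprb was thus lower in iSuRe-Cre cells in the arterial gate as well, but not in the endocardial gate, where it stood at 226 (142-343), 692 (506-923) and 251 (205-304) in that order. Tek in arterial cells was 190 (139-252), 206 (152-272) and 341 (259-441) in the same order, with the iSuRe-Cre cells highest. Tie1 was lowest in control cells in both gates, with 117 (78.4-168), 231 (174-301) and 330 (249-428) in arterial and 144 (78.7-242), 376 (243-555) and 268 (220-323) in endocardial cells.

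In the liver the 3 alleles could not be told apart by Tek. It stood at 312 CPM (270-360) in control liver, 343 (300-389) with iSuRe-HadCre and 312 (301-324) with iSuRe-Cre, with intervals that overlapped. Tie1 stood at 231 (195-272), 192 (160-228) and 172 (164-181) in that order, and the iSuRe-Cre to control ratio was 0.747 (0.630-0.893). Ptprb stood at 1413 (1322-1510), 1076 (1000-1157) and 1203 (1181-1226), with ratios to control of 0.761 (0.689-0.841) for iSuRe-HadCre and 0.851 (0.795-0.913) for iSuRe-Cre. These 3 levels followed one another without overlap, in cells whose vessel types differed between groups.

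Among liver comparisons, 1 of 5 genes was past 2-fold between iSuRe-Cre and control (19.9% of all genes), 0 of 5 between iSuRe-HadCre and control (8.19%) and 0 of 5 between iSuRe-HadCre and iSuRe-Cre (17.2%). The one was Angpt1, with 13 UMIs in control and 58 in iSuRe-Cre liver and a ratio of 0.298 (0.161-0.593). All 13 control UMIs lay in 4 cells, none of which remained when cells that met the marker rule of another type were left out. In the Stab2 sinusoidal cells of iSuRe-Cre liver, the one liver group with many of them, Tek stood at 316 CPM (299-333), Tie1 at 165 (153-178), Ptprb at 1131 (1099-1164), Angpt2 at 19.0 (15.0-23.7) and Angpt1 at 2.44 (1.17-4.48).

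Ptprb was higher in liver than in heart under each allele. The liver to heart ratio was 2.58 (2.38-2.80) for control, 6.31 (5.99-6.66) for iSuRe-Cre and 2.05 (1.87-2.24) for iSuRe-HadCre cells. Tek had ratios of 1.25 (1.06-1.46), 1.89 (1.77-2.01) and 1.27 (1.09-1.46), and Tie1 1.32 (1.09-1.59), 1.27 (1.17-1.37) and 0.921 (0.758-1.11). Past 2-fold were 2 of 5 genes in control cells (14.8% of all genes), Ptprb and, with an interval that included 1, Angpt1 (2.04, 0.978-4.00). Ptprb alone was past it in iSuRe-Cre (17% of all genes) and in iSuRe-HadCre cells (12.2%), where a hashtag minimum of 10 UMIs brought its ratio to 1.56. Within the Tcf15 capillary gate Ptprb stood at 452 CPM (290-673) in 7 control liver cells and 503 (474-534) in 191 control heart cells, so that the tissue difference was not seen there at this depth. In iSuRe-Cre cells of that gate it was 599 (514-693) in 23 liver and 171 (160-182) in 310 heart cells.

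**Figure D4:**
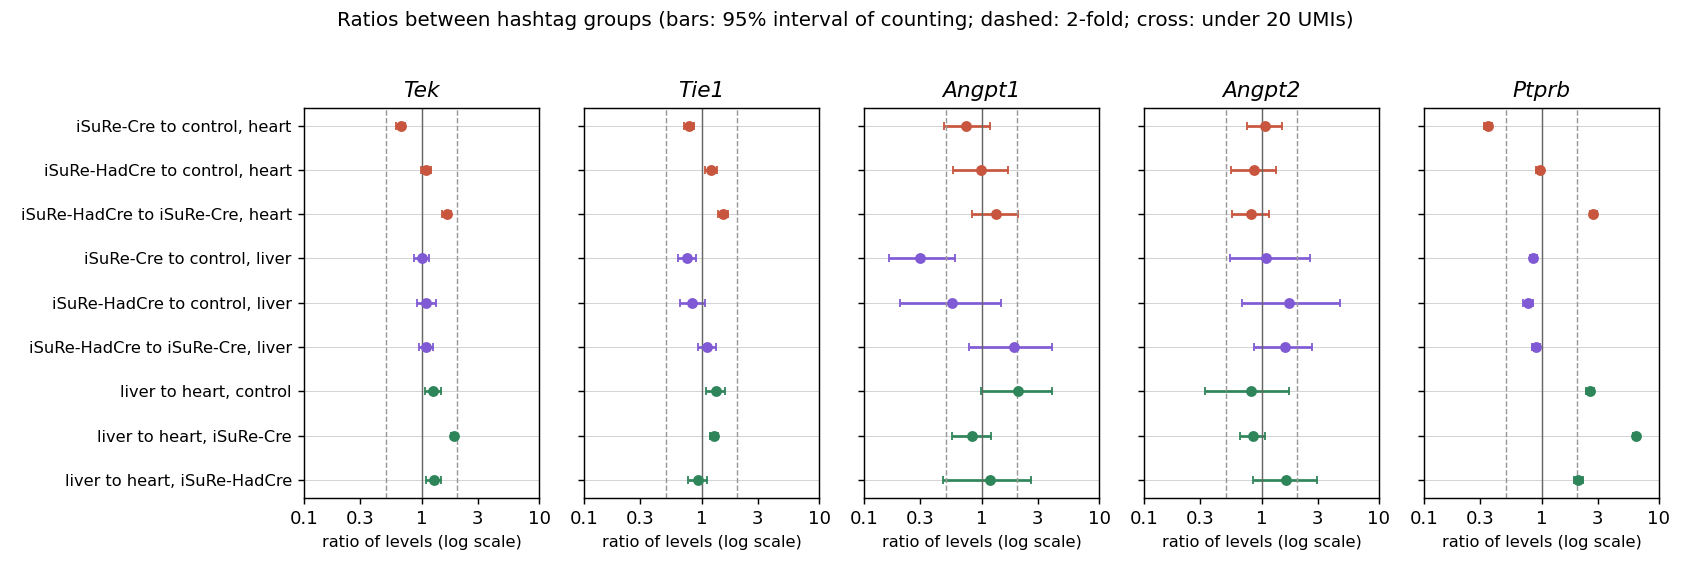
Ratio of the levels of each gene (log scale) in 9 comparisons between hashtag groups; points are ratios, bars the exact 95% interval of counting, the solid line 1 and the dashed lines 2-fold. Ptprb passes 2-fold in iSuRe-Cre heart (0.348) and in liver over heart (2.05 to 6.31), Tek and Tie1 stay within 2-fold throughout, and the angiopoietins have wide intervals.

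The angiopoietins were rare in endothelial cells of both tissues. Angpt1 gave 31 UMIs each in control and iSuRe-HadCre heart and 63 in iSuRe-Cre heart, and 13, 8 and 58 in the matching liver groups, or 6.21 to 20.8 CPM. In control heart 18 of the 31 UMIs lay in 5 endocardial cells and 1 in 191 capillary cells, and the richest cell held 14. Angpt2 gave 48, 42 and 139 UMIs in heart and 8, 15 and 131 in liver, in the same order of alleles, or 12.8 to 22.0 CPM. With the groups ordered by level, no neighbouring pair differed beyond counting error in either gene. Groups further apart in the order could differ, such as control and iSuRe-Cre liver for Angpt1, given above.

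Within the capillary gate, cells with an Angpt2 UMI could be set beside those without. The 213 cells with one were deeper, with a median of 14627 UMIs against 6459 in 1369 cells without, and the levels compared are in CPM. Of 6 tip cell genes, 2 were past 2-fold upward, where 1.21% of all genes were, namely Kcne3, a potassium channel subunit, with 59.5 against 28.3 CPM, a ratio of 2.10 (1.77-2.50), and Esm1, a secreted proteoglycan, with 17.4 against 6.59, a ratio of 2.64 (1.87-3.72). Pgf, a ligand of the VEGF family, had 1.87 (1.27-2.74) and Apln, the ligand of the apelin receptor, 1.34 (1.23-1.46), whereas Dll4, a Notch ligand, had 1.03 (0.824-1.27). Cxcr4, a chemokine receptor, had 1.43 (0.861-2.31). The median of the 6 was 1.65, against 0.984 over all genes. Tek, Tie1 and Ptprb were slightly lower in the Angpt2-bearing cells, with ratios of 0.820 (0.746-0.90), 0.880 (0.797-0.97) and 0.722 (0.669-0.778). The cells of both sets came from all groups and from cells without a single hashtag, in shares that need not match. An Angpt2 UMI was seen in 22.3% of iSuRe-Cre heart cells, against 13.4% in control and 9.97% in iSuRe-HadCre heart. These unthinned shares come from cells of unequal depth, with medians of 16379, 9100 and 7322 UMIs in that order. With each cell thinned to the same depth the shares were close, at 2.97%, 2.74% and 2.70%. The iSuRe-Cre heart group was also low in Tek, Tie1 and Ptprb. It was high in Kcne3 (32.4 CPM, against 19.8 and 7.41) but low in Esm1 (3.97, against 12.5 and 4.19). The parts of group and depth in these ratios were not tested.

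Further genes of the pathway were counted from lists. Of 7 other ligands and modifiers of ligand or receptor, 6 reached 20 UMIs in the heart comparisons and 0 were past 2-fold in any of them, where 7.53% to 11.3% of all genes were. Angpt4, the third ligand of the family, gave 0 to 2 UMIs in a group. Svep1, a matrix protein reported to bind Tie1, was past 2-fold between iSuRe-HadCre and iSuRe-Cre liver on 10 and 45 UMIs, 14.6 against 4.82 CPM, and between liver and heart of iSuRe-HadCre cells, 14.6 against 4.51. All of these levels lay below the 18.4 CPM of free RNA. It was 1 of 6 list genes with 20 UMIs in each comparison, where 17.2% and 12.2% of all genes were past 2-fold.

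Of 16 genes downstream of Tie2, 15 reached 20 UMIs between iSuRe-Cre and control heart, where 1 was lower by over 2-fold (3.76% of all genes) and 0 were higher (6.1%). This was Klf2, a transcription factor of quiescent, flow-exposed endothelium, with 1277 CPM in control heart, 933 for iSuRe-HadCre and 517 for iSuRe-Cre. The median ratio was 0.961 both over the list and over all genes. In the other allele comparisons of whole groups at most 1 of the list was higher and at most 1 lower by over 2-fold, on the few UMIs of Grb14 or Dok2. Of 15 genes, 1 was higher and 1 lower between iSuRe-Cre and control liver, where 19.9% of all genes were past 2-fold either way. The same counts held between iSuRe-HadCre and iSuRe-Cre heart (11.3% of all genes). Over these comparisons 7.53% to 19.9% of all genes were past 2-fold, both directions together. Foxo1, the factor that Tie2 signalling through Akt keeps out of the nucleus and that drives Angpt2, stood at 87.1 CPM in control heart, 105 for iSuRe-HadCre and 77.2 for iSuRe-Cre, and at 131, 120 and 132 in liver in that order, within 2-fold throughout. Nos3, the endothelial nitric oxide synthase, had an iSuRe-Cre to control ratio of 0.961 in heart and 0.634 in liver.

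Of the 6 tip cell genes, 3 (median ratio of the 6, 0.499) were lower by over 2-fold in iSuRe-Cre than in control heart (3.76% of all genes, median ratio 0.961), Esm1, Dll4 and Cxcr4, and 0 were higher; Angpt2, itself a tip cell gene, had a ratio of 1.06 (0.756-1.50) there. Between iSuRe-HadCre and control heart 3 of the 6 were lower by over 2-fold as well, Esm1, Pgf and Kcne3, where 7.53% of all genes were past 2-fold in either direction. Between iSuRe-Cre and control liver 4 were lower and 1, Kcne3, was higher, where 19.9% of all genes were past 2-fold in either direction. Dll4, which Notch signalling and VEGF control, was lower in iSuRe-Cre than in control cells of both tissues, with ratios of 0.451 (0.358-0.571) in heart and 0.305 (0.215-0.443) in liver. Kdr was higher in both, with 2.61 (2.39-2.86) and 3.34 (2.83-3.97). Between iSuRe-HadCre and iSuRe-Cre cells, Dll4 was higher in heart and liver, with 2.44 (1.94-3.05) and 2.46 (1.63-3.60), and so was Grb14, an adaptor protein that binds Tie2, with 3.72 (1.95-7.23) and 3.19 (1.18-7.41). Kcne3 was lower there, with 0.229 (0.143-0.351) and 0.380 (0.122-0.903). The Grb14 ratios rest on 25 against 18 UMIs in heart and 7 against 30 in liver. Its levels in these groups, 2.17 to 10.2 CPM, did not stand clear above free RNA, which gave 9.75 (4.46-18.5). The vein gene Nr2f2 was the only 1 of 3 past 2-fold between liver and heart, with 383 against 131 CPM for control, 385 against 101 for iSuRe-HadCre and 610 against 138 for iSuRe-Cre cells. Of all genes, 14.8%, 12.2% and 17% were past 2-fold in these comparisons, in the same order.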

How the data were processed

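The authors deposited raw gene and hashtag counts (UMIs) of 1 pooled 10x library, made with Cell Ranger 7.1.0 on a GRCm38 reference that also held the transgenes, for all 2755147 barcodes; per the labels, Seurat was used afterwards. No replicate library was analysed here, so counts were pooled per group and described without tests. The 5 genes, the gates and the gene lists were chosen with earlier results of these data known.

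Barcodes with 2000 to 75000 gene UMIs, more than 500 genes and under 5% mitochondrial and under 5% haemoglobin UMIs were kept (14348). A cell belonged to a hashtag group when its tag reached 25 UMIs (140 for hashtag 302) and the other 5 tags stayed below these values. It was Cdh5-positive when its log-normalised Cdh5 value (natural log, scale 10000) passed 0.9. The paper also removed cells whose WPRE value was 0.5 or less, a step used here only as an alternative. It would keep 145 of 435 iSuRe-Cre heart cells and 379 of 858 iSuRe-Cre liver cells. For iSuRe-HadCre it would keep 292 of 311 heart cells and 66 of 76 liver cells. No doublet caller was run beyond the tag rule, and 259 Cdh5-positive and 319 other cells that met several gates were left out. A gate asked for at least 2 markers, 5 marker UMIs and 3 times the UMIs expected from free RNA. Endothelial gates took only Cdh5-positive cells, and the other gates only Cdh5-negative cells. Free RNA was the sum of 24194 barcodes with 10 to 100 UMIs (922778 UMIs).

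Levels are UMIs per 1000000 gene UMIs (CPM). A ratio was called past 2-fold at 2 or more or 0.5 or less with at least 20 UMIs over both groups. Genes like a member were ranked by Pearson r of log2(CPM + 10) over 19 gates, among genes with 200 UMIs. Genes outside the 5 were named from fixed lists, when past 2-fold in both tissues or among the 5 most like genes (the first 1 or 2 are printed), and others named beside them were chosen after their values were seen. The intervals and the 2-fold rule were tested on Poisson counts simulated from the pooled rates of iSuRe-Cre and control heart. Such counts hold no spread between cells or animals, so the test cannot bear on that spread. Python 3.11.15, numpy 2.4.6, scipy 1.17.1 and pandas 2.3.3 were used. Reads are 3′ tags, so levels are not compared between genes. The results of 1 gene list and 1 gate are not reported here.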

Additional observations from a re-analysis of the deposited data

Results flagged for a closer look

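The Ptprb ratio of iSuRe-HadCre to iSuRe-Cre cells was 2.76 (2.57-2.95) in heart and 0.894 (0.829-0.964) in liver, in opposite directions; with 1 sample a group the difference was not tested, and the liver value passed 1 with WPRE-positive cells only (1.07) and with free RNA subtracted (1.04).

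The Itga2b megakaryocyte gate held only 3 cells and entered no comparison, but its Angpt1 level was 215 CPM (137-319) on 24 UMIs, above the 37.9 CPM of free RNA and above the mesenchymal gate, with 20 of the UMIs in 1 cell.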

How the results depend on the processing

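Intervals hold counting error only, and depth limits the angiopoietins most, with 8 to 63 Angpt1 UMIs and 8 to 139 Angpt2 UMIs a group. Under the alternatives run for it, the iSuRe-Cre to control heart ratio stayed below 1 for Ptprb (0.294 to 0.425), Tek (0.495 to 0.754) and Tie1 (0.669 to 0.879), and the liver to heart ratio of Ptprb stayed above 1. Outside these alternatives, the arterial gate put Tek and Tie1 above control in iSuRe-Cre heart, the endocardial gate all 3 genes and UMIs per cell Tek and Tie1, and in control capillary cells Ptprb was 452 CPM in liver and 503 in heart. The number of genes highest in an endothelial gate, 4, kept its value in each alternative gate rule. In the main rule 1 of the 4 is Angpt2, whose lymphatic gate did not differ from pericytes beyond counting error (ratio 1.38, 0.65-3.01). Over ratios, 325 recomputed values stayed within the counting interval, 92 moved beyond it and 1 reversed, besides those from cells of 5000 to 15000 UMIs.

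The number of the 5 genes past 2-fold moved as follows; the cause was not tested. With at least 1 Cdh5 UMI it was 0 (1 before) for liver to heart in iSuRe-HadCre cells. With WPRE-positive iSuRe cells it was 1 (0 before) for iSuRe-HadCre to iSuRe-Cre liver and 2 (1 before) for liver to heart in iSuRe-HadCre cells. A hashtag minimum of 50 gave 1 for iSuRe-HadCre to iSuRe-Cre liver, 1 (2 before) for liver to heart in control and 2 (1 before) in iSuRe-Cre cells. A minimum of 10 gave 2 for iSuRe-Cre to control heart (1 before), 0 for iSuRe-Cre to control liver (1 before), 1 for liver to heart in control and 0 in iSuRe-HadCre cells. Mitochondrial and haemoglobin limits of 10% gave 1 for iSuRe-HadCre to iSuRe-Cre liver, 1 for liver to heart in control and 0 in iSuRe-HadCre cells. Without barcodes meeting the marker rule of another type it was 1 for liver to heart in control and 2 in iSuRe-Cre cells, and the Angpt1 ratio there was 0 in control cells (2.04 before). Per endothelial reference UMI it was 2 for liver to heart in iSuRe-Cre and 0 in iSuRe-HadCre cells. With free RNA subtracted it was 2 for iSuRe-Cre to control heart, 2 for iSuRe-HadCre to iSuRe-Cre heart, 2 for iSuRe-HadCre to control liver (0 before) and 2 for liver to heart in iSuRe-HadCre cells. Within the Tcf15 capillary gate it was 3 for iSuRe-Cre to control heart and 2 for iSuRe-HadCre to iSuRe-Cre heart.

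Cells of 5000 to 15000 UMIs, chosen after seeing the data, gave 3 for iSuRe-Cre to control heart (Ptprb 0.294, Angpt2 0.466 and Angpt1 6.00), 0 for iSuRe-Cre to control liver, 1 for iSuRe-HadCre to iSuRe-Cre liver, 1, 2 and 0 for liver to heart in control, iSuRe-Cre and iSuRe-HadCre cells, and an Angpt1 ratio of 0 for liver to heart in control. Gate-wise and free RNA ratios were not run where a liver gate held under 20 cells or for liver to heart within a gate. No paired analysis was possible because each group is 1 sample.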

Other observations

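Cdh5-positive cells without a single hashtag group (5716 cells, which the labels put in no group) gave 196 CPM of Tek (191-201), 133 of Tie1 (129-136), 422 of Ptprb (416-429), 15.2 of Angpt1 (14.0-16.6) and 12.6 of Angpt2 (11.5-13.9), at a median depth of 4266 UMIs.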
